A study of Mus musculus with 12 samples.

Results

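The genes described here are the joining and constant segments of the alpha-beta T cell receptor (TCR). They were taken as every row of the count table whose symbol began with Traj or Trbj, together with Trac, Trbc1 and Trbc2. The rule found 7 of the 47359 rows, the 3 constant genes and 4 Traj segments (Traj2, Traj3, Traj18 and Traj53). No row carried a Trbj symbol. RNA was taken from TH17 cells after transfer into RAG2-/- mice, which make no T or B lymphocytes. The cells were sorted from the central nervous system at the peak of experimental autoimmune encephalomyelitis, used in mice to model multiple sclerosis. The 4 groups were 2D2-IL-17A/F-DKO CXCR6+ cells (DKO, 1 library), 2D2-WT CXCR6+ cells (WT, 5 libraries), DKO SLAMF6+ cells (1 library) and WT SLAMF6+ cells (5 libraries). The label 2D2, which all groups share, names a transgenic TCR against myelin oligodendrocyte glycoprotein, and DKO cells lack both Il17a and Il17f. CXCR6 is a chemokine receptor and SLAMF6 a SLAM family receptor, and each marked the sorted subset.

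A TCR chain is assembled in the thymus by joining a variable (V) and a joining (J) segment, with a diversity segment between them in the beta chain. The J segment is then spliced to a constant (C) gene. The alpha locus has a single constant gene, Trac, behind a long array of Traj segments. The beta locus has 2 constant genes, Trbc1 and Trbc2, each behind a J cluster of its own, so a rearranged beta chain normally uses 1 of them. The chains reach the cell surface only with the CD3 proteins, which carry the signal into the cell.

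The library totals were 8552216 counts in DKO CXCR6+, 6818658 to 8710148 in WT CXCR6+, 8285134 in DKO SLAMF6+ and 8134987 to 11635037 in WT SLAMF6+. Il17a had 0 counts in DKO CXCR6+ cells, against 1708 to 4439 in WT CXCR6+ cells. It had 3 counts in DKO SLAMF6+ cells, against 1622 to 4751 in WT SLAMF6+ cells. Trbv16, which held nearly all Trbv counts of the WT libraries, took 9.96% of them in DKO CXCR6+ cells, against 99.6 to 99.8% in WT CXCR6+ cells. Its share was 6.51% in DKO SLAMF6+ cells, against 99.7 to 99.8% in WT SLAMF6+ cells. The DKO libraries therefore did not share the dominant Trbv segment of the WT libraries, although both carry the 2D2 label. Ddx3y, a Y-linked gene, was at 36.3 CPM (counts scaled to the TMM-adjusted library total) in DKO CXCR6+ cells, at 36.1 CPM in DKO SLAMF6+ cells and at 0 in all 10 WT libraries. Xist, transcribed from the inactive X chromosome, was at 0 in both DKO libraries and had 447 to 1846 counts in every WT library. Haemoglobin genes made up 11.9% of counts in DKO SLAMF6+ cells and at most 0.000352% in the other libraries. With 1 DKO library in each subset, genotype cannot be told apart from these other differences between the libraries. The labels number the WT libraries m1 to m5 in each subset and both DKO libraries m0. They do not say that these numbers stand for separate animals, so p-values measure the spread between these libraries only.

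Trbc2 and Trac were far lower in DKO cells than in WT cells, while Trbc1 was not lower in CPM, though it was in DKO CXCR6+ cells relative to the CD3 genes. In DKO CXCR6+ cells, Trac and Trbc2 fell and Trbc1 did not pass the test. In DKO SLAMF6+ cells, Trac and Trbc2 fell while Trbc1 rose. Of the 7 rows, 6 passed the filter on low counts, and 3 of these 6 were Traj segments that passed only through the single library that held them. Their calls are therefore not read as changes, and their counts are given as a description. The call rule was an adjusted p under 0.05 in edgeR's quasi-likelihood test. In DKO CXCR6+ cells it called 2 of the 3 constant genes, both lower, where 28.7% of all genes tested were called, 12.8% higher and 15.9% lower. In DKO SLAMF6+ cells it called all 3 constant genes, 1 higher and 2 lower, and Traj18, where 31.1% of all genes were called, 13.5% higher and 17.5% lower. In bulk samples, fewer cells using a gene and less RNA per cell cannot be told apart.

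Trbc2 encodes the second beta chain constant region. It was at 1797 CPM in DKO CXCR6+ cells, against 24961, 26353, 17953, 27524 and 19464 CPM in the WT CXCR6+ libraries (mean 23251 ± 4278, SD, n = 5). In DKO SLAMF6+ cells it was at 2026 CPM, against 30402, 26434, 31827, 31187 and 30256 CPM in the WT SLAMF6+ libraries (30021 ± 2103, SD, n = 5). Both DKO values lay below every WT library of the same subset. Trbc2 ranked 85 and 83 by counts in the DKO CXCR6+ and SLAMF6+ libraries, and between 2 and 4 in each WT library. It was 12.9-fold lower in DKO CXCR6+ cells (log2 fold change -3.69, SE 0.302, edgeR adjusted p = 6.06e-06) and 14.8-fold lower in DKO SLAMF6+ cells (-3.89, SE 0.306, edgeR adjusted p = 5.15e-06).

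Trac encodes the alpha chain constant region. It was at 543 CPM in DKO CXCR6+ cells, against 2682, 2838, 2019, 3397 and 2116 CPM in the WT CXCR6+ libraries (2610 ± 564, SD, n = 5). In DKO SLAMF6+ cells it was at 728 CPM, against 3906, 3506, 4157, 4117 and 4034 CPM in the WT SLAMF6+ libraries (3944 ± 263, SD, n = 5). The groups did not overlap in either subset. Trac was 4.81-fold lower in DKO CXCR6+ cells (log2 fold change -2.27, SE 0.280, edgeR adjusted p = 0.000115) and 5.42-fold lower in DKO SLAMF6+ cells (-2.44, SE 0.283, edgeR adjusted p = 7.75e-05).

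Trbc1 encodes the other beta chain constant region. It was at 999.99 CPM in DKO CXCR6+ cells, against 831, 789, 651, 844 and 975 CPM in the WT CXCR6+ libraries (818 ± 116, SD, n = 5). In DKO SLAMF6+ cells it was at 1417 CPM, against 759, 770, 850, 764 and 779 CPM in the WT SLAMF6+ libraries (784 ± 37.6, SD, n = 5). Each DKO value lay above all WT libraries of its subset, narrowly in CXCR6+ cells. The difference passed the test in SLAMF6+ cells (1.81-fold, log2 fold change 0.85, SE 0.153, edgeR adjusted p = 0.00145) but not in CXCR6+ cells (log2 fold change 0.29, SE 0.159, edgeR adjusted p = 0.219).

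The interaction of genotype and subset asks whether the DKO difference was unequal in the subsets. It called none of the 3 constant genes in edgeR, where 10.3% of all genes were called, 6.36% with a positive and 3.94% with a negative difference. The Traj segments, with groups at 0 counts, are left out of this count. Trbc1 alone had an unadjusted p under 0.05. Its log2 difference was -0.56 (SE 0.230, edgeR adjusted p = 0.166). Of the 6 genes that passed the filter, DESeq2's Wald test called 2 and limma-voom 1. The calls other than Trbc1 were of Traj segments that a single library held. DESeq2 called Trbc1 (log2 difference -0.63, adjusted p = 0.0367). It also passed in edgeR when the WT libraries numbered 3 were left out (-0.67, adjusted p = 0.0401). Over all alternatives its adjusted p ran between 0.0367 and 0.432. For Trac and Trbc2 the log2 differences were 0.17 (SE 0.332) and 0.20 (SE 0.323), with edgeR adjusted p = 0.891 and 0.841.

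**Figure D1:**
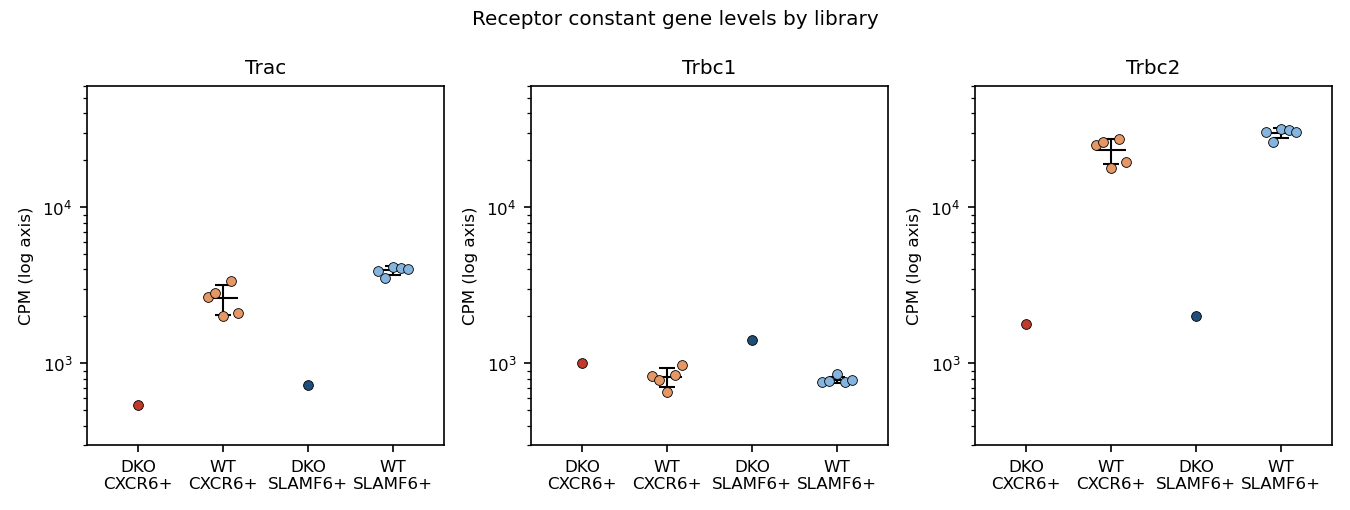
Levels of Trac, Trbc1 and Trbc2 in CPM on a log axis, with 1 point per library and the mean ± SD over the 5 libraries of each WT group. Trac and Trbc2 of both DKO libraries lie below all WT libraries of their subset, and Trbc1 lies above them in CPM but not relative to the CD3 genes.

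Per kilobase of the longest annotated transcript, Trbc2 was also the highest of the 3 constant genes in every library. It was at 2597 CPM per kilobase in DKO CXCR6+ cells, against 25944 to 39774 in WT CXCR6+ cells, and at 2927 in DKO SLAMF6+ cells, against 38199 to 45992 in WT SLAMF6+ cells. The order below it differed. On this scale Trbc1 was above Trac in both DKO libraries, at 1357 against 580 CPM per kilobase in DKO CXCR6+ cells and at 1923 against 779 in DKO SLAMF6+ cells. In every WT library Trac was above Trbc1, at 2159 to 3633 against 884 to 1323 CPM per kilobase in WT CXCR6+ cells and at 3750 to 4446 against 1031 to 1154 in WT SLAMF6+ cells.

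The balance of the beta constant genes differed accordingly. Trbc1 took 35.7% of all Trbc counts in DKO CXCR6+ cells (8650 of 24196 counts, 95% exact binomial interval 35.1 to 36.4%), against 3.22, 2.91, 3.50, 2.98 and 4.77% in the WT CXCR6+ libraries (3.47 ± 0.761%, SD, n = 5). It took 41.2% in DKO SLAMF6+ cells (9788 of 23776 counts, interval 40.5 to 41.8%), against 2.44, 2.83, 2.60, 2.39 and 2.51% in the WT SLAMF6+ libraries (2.55 ± 0.173%, SD, n = 5). The DKO shares were 10.3-fold and 16.1-fold above the WT means in CXCR6+ and SLAMF6+ cells. These intervals cover counting error only. A permutation test of 1 library against 5 cannot give a two-sided p below 0.333, so ratios of DKO to WT libraries carry no test.

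Trbc1 and Trbc2 are near copies, and part of their counts depends on how shared reads were divided. Both lie on chromosome 6 (GRCm38, plus strand), Trbc1 at chr6:41538218-41539881 and Trbc2 at chr6:41546730-41548352, with 6849 bases between them. Trbc1 has the gene identifier ENSMUSG00000076490.6 and Trbc2 ENSMUSG00000076498.2. Their first exons, 375 bases each, differ at 1 base (C260A, counted from 1 at the first base of the exon, Trbc1 base first). The third exons, 107 bases each, differ at 15 bases and are 86.0% identical. The sequences are shown because these differences decide which reads can separate the genes. They are reference sequence of GENCODE M21 transcripts on GRCm38, and capitals mark the bases that differ. The first pair is a 60-base stretch of exon 1 (chr6:41538447-41538506 and chr6:41546959-41547018), the second pair exon 3 (chr6:41539229-41539335 and chr6:41547772-41547878).
Trbc1 exon 1 stretch: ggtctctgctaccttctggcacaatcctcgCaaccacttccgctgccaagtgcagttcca
Trbc2 exon 1 stretch: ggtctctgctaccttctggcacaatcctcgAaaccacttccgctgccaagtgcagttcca
Trbc1 exon 3: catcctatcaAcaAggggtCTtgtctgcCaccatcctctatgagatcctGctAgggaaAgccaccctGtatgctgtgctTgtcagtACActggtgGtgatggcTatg
Trbc2 exon 3: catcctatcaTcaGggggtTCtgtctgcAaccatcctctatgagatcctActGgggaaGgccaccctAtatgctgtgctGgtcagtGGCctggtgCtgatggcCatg

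At the read length of 38 bases, 307 of the 700 stretches of Trbc1 (43.9%) also occurred in Trbc2, which is 46.9% of the 655 stretches of Trbc2. No stretch of this length in Trac, or in any of the 4 Traj segments, occurred in another annotated gene. The split between Trbc1 and Trbc2 is therefore uncertain in a way that Trac is not. The values are expected counts and the processing notes name RSEM, so shared reads had already been divided between the genes. The part of this division in the Trbc1 share was not tested, since only counts per gene were used. Adjusted for the lengths of the transcript models (737 and 692 bases), the Trbc1 share was 34.3% in DKO CXCR6+ cells, against 2.73 to 4.49% in WT CXCR6+ cells. It was 39.7% in DKO SLAMF6+ cells, against 2.25 to 2.66% in WT SLAMF6+ cells. No gene on the opposite strand overlapped any of the 7 genes in the annotation.

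**Figure D2:**
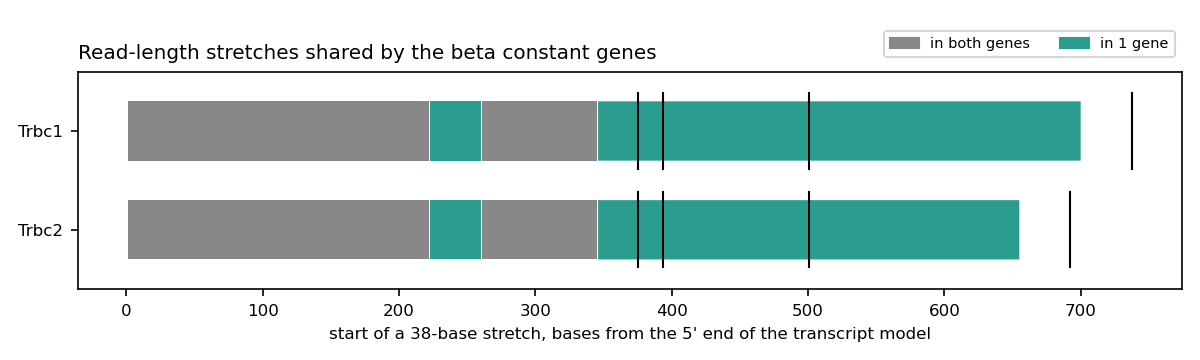
Every 38-base stretch of the Trbc1 and Trbc2 transcript models by its start position in bases, grey where the stretch is in both genes and green where it is in 1, with black lines at the ends of exons. The shared 307 stretches lie mainly in exon 1.

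The constant genes were also set against the genes of the CD3 complex, which moved the other way. Of the 4 genes Cd3e, Cd3d, Cd3g and Cd247, 4 rose in DKO CXCR6+ cells and 3 in DKO SLAMF6+ cells, with median log2 fold changes of 1.56 and 0.73, where the medians over all genes tested were -0.22 and -0.05. Cd3e, a signalling chain of the complex, was at 578 CPM in DKO CXCR6+ cells and 160 ± 14.2 CPM in WT CXCR6+ cells (SD, n = 5; log2 fold change 1.86, edgeR adjusted p = 4.88e-07). It was at 544 CPM in DKO SLAMF6+ cells and 233 ± 10.1 CPM in WT SLAMF6+ cells (SD, n = 5; 1.23, edgeR adjusted p = 9.95e-06). Cd247, the zeta chain, did not pass the test in SLAMF6+ cells (log2 fold change 0.39, edgeR adjusted p = 0.105). The interaction was called for Cd3e (log2 difference 0.63, edgeR adjusted p = 0.0345) and Cd3g (0.98, edgeR adjusted p = 0.0220).

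Per 1000 counts of these 4 genes, Trbc2 had 899.8 counts in DKO CXCR6+ cells, against 30010 to 36646 in WT CXCR6+ cells, 36.5-fold lower than the WT mean. It had 995.2 in DKO SLAMF6+ cells, against 24328 to 26885 in WT SLAMF6+ cells, 26.0-fold lower. Trac had 271.6 counts per 1000 in DKO CXCR6+ cells, against 3306 to 4253 in WT CXCR6+ cells, and 357.7 in DKO SLAMF6+ cells, against 3227 to 3549 in WT SLAMF6+ cells. Both genes were thus low in DKO cells on either scale. The direction for Trbc1 depended on the scale. Although above the WT libraries in CPM, it had 500.7 counts per 1000 in DKO CXCR6+ cells, below the 1057 to 1523 of WT CXCR6+ cells. In DKO SLAMF6+ cells it had 696.4, inside the range of 649.2 to 708.3 of WT SLAMF6+ cells.

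**Figure D3:**
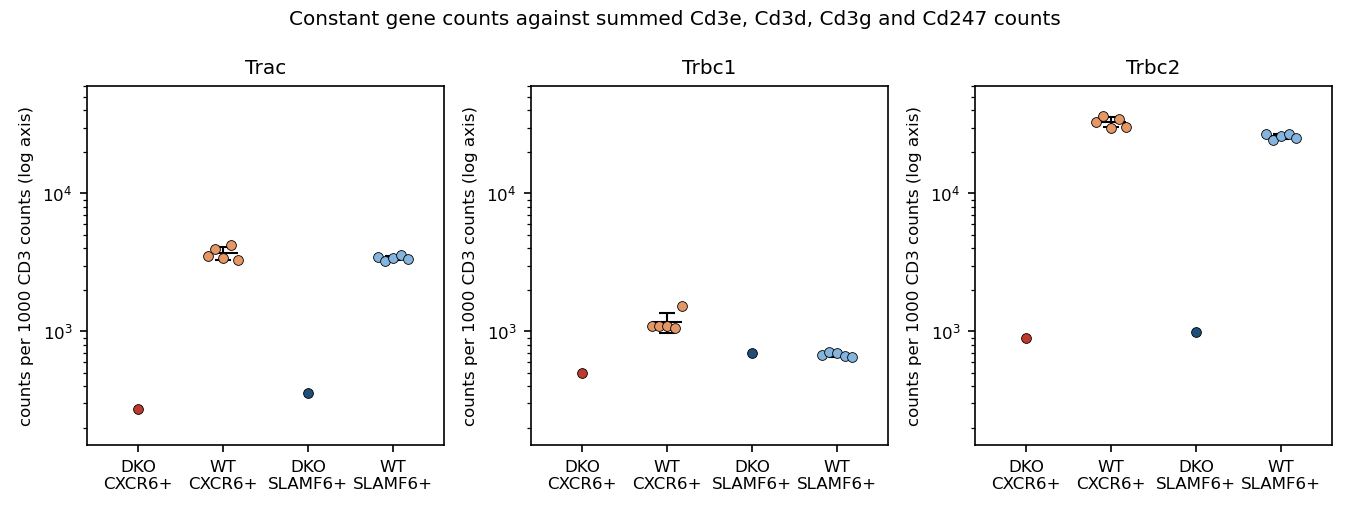
Counts of Trac, Trbc1 and Trbc2 per 1000 counts of Cd3e, Cd3d, Cd3g and Cd247 on a log axis, with 1 point per library and the mean ± SD of the WT groups. Trac and Trbc2 are lower in both DKO libraries than in any WT library, and the DKO SLAMF6+ value of Trbc1 lies among those of WT SLAMF6+.

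Ratios between the receptor genes themselves were shifted as well. Trac had 194.0 counts per 1000 Trbc counts in DKO CXCR6+ cells, against 103.5 to 119.7 in WT CXCR6+ cells. It had 211.5 in DKO SLAMF6+ cells, against 125.4 to 129.97 in WT SLAMF6+ cells. The summed counts of the 120 Trav rows came to 1853 per 1000 Trac counts in DKO CXCR6+ cells, against 812.3 to 991.9 in WT CXCR6+ cells. They came to 1680 in DKO SLAMF6+ cells, against 872.0 to 959.6 in WT SLAMF6+ cells. Both alpha chain ratios were thus above every WT library of the same subset. The 31 Trbv rows had 529.5 counts per 1000 Trbc counts in DKO CXCR6+ cells, against 548.6 to 619.3 in WT CXCR6+ cells. They had 493.3 in DKO SLAMF6+ cells, against 659.8 to 689.9 in WT SLAMF6+ cells. This ratio lay below every WT library. Trbv16 held nearly all Trbv counts in WT cells but not in DKO cells. The part of V segment use and length in these ratios was not tested.

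**Figure D4:**
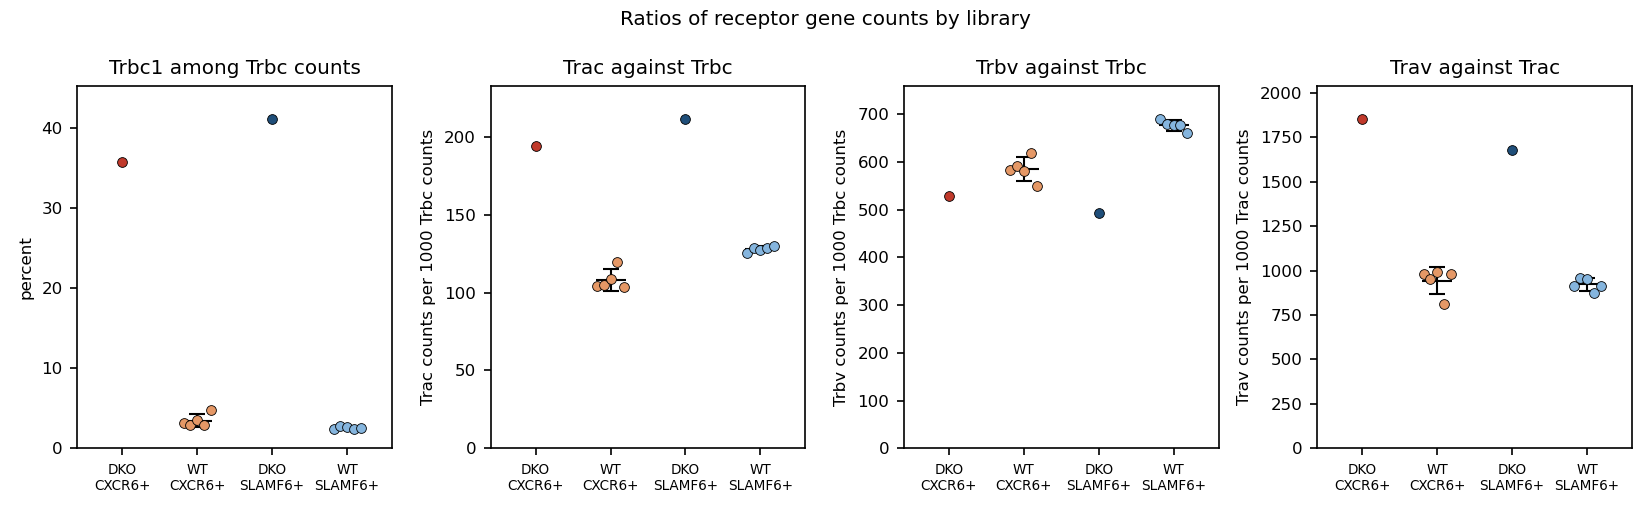
Ratios of receptor gene counts by library, with the Trbc1 share in percent and the other ratios per 1000 counts of the constant gene; points are libraries and bars the mean ± SD of the WT groups. The DKO libraries stand above WT in the Trbc1 share, Trac per Trbc and Trav per Trac, and below it in Trbv per Trbc.

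Between the WT subsets, Trac fell in CXCR6+ cells relative to SLAMF6+ cells. It averaged 2610 CPM in WT CXCR6+ cells and 3944 CPM in WT SLAMF6+ cells, and the groups did not overlap (log2 fold change -0.60, SE 0.136, edgeR adjusted p = 0.00579). It was the only 1 of the 3 constant genes called by edgeR, where 33.3% of all genes tested were called, 15.6% higher and 17.7% lower. Trbc2 was at a mean of 23251 CPM in WT CXCR6+ cells and 30021 CPM in WT SLAMF6+ cells (log2 fold change -0.37, SE 0.132, edgeR adjusted p = 0.0529). It missed the threshold but passed under 5 of 14 alternatives, over which its adjusted p ran between 0.0153 and 0.288. Among these was the fit without the libraries numbered 2 (-0.46, edgeR adjusted p = 0.0342). Trbc1 was at 818 CPM in WT CXCR6+ cells and 784 CPM in WT SLAMF6+ cells (log2 fold change 0.06, SE 0.0938, edgeR adjusted p = 0.656), and without the libraries numbered 5 the value was -0.0126.

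The libraries also differed in mt-Ts1, a mitochondrial serine tRNA, which had 0 counts in 1 of 5 WT CXCR6+ and in 4 of 5 WT SLAMF6+ libraries. With a term for libraries at 0, the log2 fold change of Trac was -0.52 and edgeR's adjusted p was 0.0576. The exceptions to the split were WT CXCR6+ library 1, with Trac at 2682 CPM, and WT SLAMF6+ library 2, with 3506 CPM, the lowest of its group. Mitochondrial genes held 12.9 to 17.6% of the counts in WT CXCR6+ cells and 2.20 to 5.24% in WT SLAMF6+ cells. Their part in the Trac difference was not tested.

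The 4 CD3 genes also fell in WT CXCR6+ cells, with a median log2 fold change of -0.64 against 0.13 over all genes tested. Relative to them the constant genes were not lower. Trbc2 had 32860 ± 2784 counts per 1000 CD3 counts in WT CXCR6+ cells and 25845 ± 1089 in WT SLAMF6+ cells (SD, n = 5 each). Trbc1 had 1171 ± 197 in WT CXCR6+ cells and 676.0 ± 24.6 in WT SLAMF6+ cells. Both ratios were higher in WT CXCR6+ cells with no overlap (exact two-sided permutation test without pairing, p = 0.00794, adjusted p = 0.0127 over 8 ratios). This p is the smallest that 5 libraries against 5 can give. With libraries paired by number, an exact sign-flip test gave both an adjusted p of 0.1, where its raw p cannot fall below 0.0625. Trac had 3680 ± 406 in WT CXCR6+ cells and 3395 ± 118 in WT SLAMF6+ cells, and the groups overlapped (exact permutation p = 0.214, adjusted p = 0.286). For Trbc2 the direction in CPM was thus the opposite of that against CD3.

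Of the other ratios between the WT subsets, 3 differed with no overlap and the same exact permutation p of 0.00794 (adjusted p = 0.0127). With pairing by number, the sign-flip test again gave these 3 an adjusted p of 0.1. The Trbc1 share of Trbc counts was 3.47 ± 0.761% in WT CXCR6+ cells and 2.55 ± 0.173% in WT SLAMF6+ cells, a difference of 0.921 percentage points, with 5 of 5 WT CXCR6+ libraries above every WT SLAMF6+ library. Without the libraries numbered 5, of which WT CXCR6+ stood at 4.77%, the difference was 0.586 points (exact permutation test, adjusted p = 0.0457). Trac per 1000 Trbc counts was 108.1 ± 6.82 in WT CXCR6+ cells and 128.1 ± 1.80 in WT SLAMF6+ cells. Trbv per 1000 Trbc counts was 584.5 ± 25.3 in WT CXCR6+ cells and 676.3 ± 10.8 in WT SLAMF6+ cells. Trav per 1000 Trac counts was 943.5 ± 75.0 in WT CXCR6+ cells and 922.4 ± 35.0 in WT SLAMF6+ cells, and these overlapped (exact permutation p = 0.595, adjusted p = 0.680).

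The joining segments gave few counts. All 4 Traj rows are segments of 66 bases on chromosome 14 (GRCm38, plus strand), a single exon each, in the array that precedes Trac (chr14:54220521-54224206, ENSMUSG00000076928.5). Traj53 lies at chr14:54162644-54162709, Traj18 at chr14:54200777-54200842, Traj3 at chr14:54217292-54217357 and Traj2 at chr14:54217836-54217901. Their sequences follow from GENCODE M21, because they show how short and how distinct the counted features are. Capitals mark the pattern searched for on the coding strand, the codons TTN, GGN, NNN and GGN in a row, which hold the conserved Phe-Gly-X-Gly of the J region. Among all annotated segments it occurs in 46 of 60 Traj (76.7%) and 11 of 14 Trbj (78.6%), and Traj3 does not hold it.
Traj53: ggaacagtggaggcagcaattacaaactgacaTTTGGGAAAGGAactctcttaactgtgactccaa
Traj18: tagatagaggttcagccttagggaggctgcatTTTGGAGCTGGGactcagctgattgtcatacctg
Traj3: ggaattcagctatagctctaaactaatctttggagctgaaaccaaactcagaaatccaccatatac
Traj2: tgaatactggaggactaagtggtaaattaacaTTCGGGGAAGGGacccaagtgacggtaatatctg

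Traj18 had 938 counts in DKO SLAMF6+ cells (136 CPM) and 0 in the other 11 libraries. Against the floor of 3 counts over the WT SLAMF6+ group, this was at least 2181-fold higher, if those libraries could register so short a segment. That was not tested. The tRNA mt-Ts1 had 148459 counts in DKO SLAMF6+ cells and 0 in 4 of 5 WT SLAMF6+ libraries. WT SLAMF6+ library 2, with 111496 counts of mt-Ts1, also had 0 of Traj18. No test of Traj18 is given, since its row passed the filter only through the DKO SLAMF6+ library. Traj18 is the segment of the invariant alpha chain of natural killer T cells in mice, where it is joined to Trav11. Trav11d had 262 counts in DKO CXCR6+ cells, against 0 to 32 in WT CXCR6+ cells, and 60 in DKO SLAMF6+ cells, against 0 to 21 in WT SLAMF6+ cells. Trav11n, its near copy, had 0 counts in DKO CXCR6+ cells, against 0 to 16 in WT CXCR6+ cells, and 0 in both DKO and WT SLAMF6+ cells. Zbtb16, a transcription factor expressed in those cells among others, had 4 counts in DKO CXCR6+ cells, against 0 to 2 in WT CXCR6+ cells. It had 1 count in DKO SLAMF6+ cells, against 0 in WT SLAMF6+ cells. Klrb1c, which encodes NK1.1, had 22 counts in DKO CXCR6+ cells, against 0 to 7 in WT CXCR6+ cells, and 150 in DKO SLAMF6+ cells, against 0 in WT SLAMF6+ cells. Both genes were thus detected in DKO SLAMF6+ cells, Zbtb16 by 1 count. The part of such cells in the Traj18 counts was not tested.

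Traj3 had 1190 counts and Traj2 1188 counts in WT CXCR6+ library 4 (118.5 and 118.3 CPM), and both had 0 in the other 11 libraries. The segments lie 479 bases apart and share no 38-base stretch. Their near-equal counts came from the same single library, so they say nothing of a difference between the WT subsets. Traj53 had 0 counts in all 12 libraries, which allows up to 3 counts in each. Summed over the 4 rows, Traj counts per 1000 Trac counts were 186.6 in DKO SLAMF6+ cells, 69.7 in WT CXCR6+ library 4 and 0 elsewhere. Shares of single J segments could not be compared between groups, as Traj counts were present in 2 of the 12 libraries.

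The J segments are short, and few had a row. The shortest annotated gene with a row in the table was mt-Tk, a mitochondrial lysine tRNA of 65 bases. By that definition, none of the 502 annotated genes shorter than it had a row. All 14 Trbj genes (46 to 54 bases) and 50 of the 60 Traj genes (29 to 72 bases, median 61) are shorter. Of the 10 Traj genes of at least 65 bases, 4 had a row. The part of segment length in the low J counts was not tested. J segments without a row were not analysed here.

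**Figure D5:**
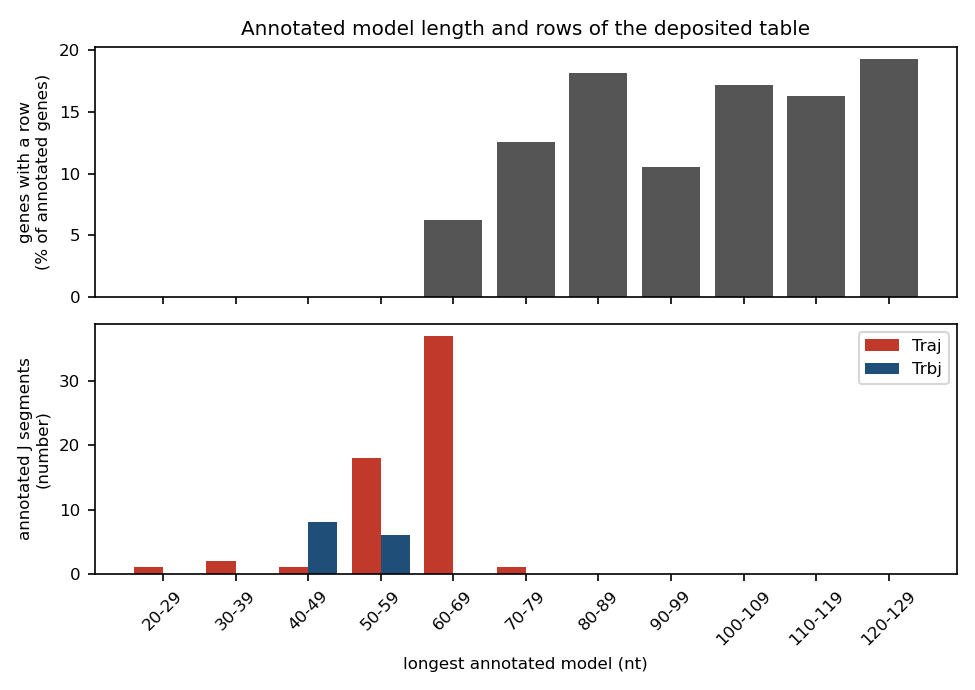
Share of annotated genes with a row in the count table, in percent (top), and numbers of annotated Traj and Trbj segments (bottom), by length of the longest annotated transcript in bases. No gene of up to 59 bases had a row, the range that holds all Trbj segments, and 6.26% of genes of 60 to 69 bases did.

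Other genes of receptor assembly and of the other receptor class were read beside these. Of the recombination genes, Rag1 and Rag2, the recombinase, had 0 to 4 counts in every library and were not tested. Dntt, which adds bases at the joins, had 2 counts in DKO CXCR6+ cells, against 8 to 53 in WT CXCR6+ cells. It had 9 counts in DKO SLAMF6+ cells, against 38 to 66 in WT SLAMF6+ cells. Since Dntt passed the filter only through the WT libraries, no test is given. Of the 5 gamma-delta receptor constant genes, 4 passed the filter. Trgc2, a gamma chain constant gene, had 130 counts in DKO CXCR6+ cells, against 0 in all WT CXCR6+ libraries (at least 226-fold higher against the floor of 3 counts over the WT group). It had 133 counts in DKO SLAMF6+ cells, against 0 to 2 in WT SLAMF6+ cells. It passed the filter only through the DKO libraries, so no test is given. Trdc, the delta chain constant gene, had 4 counts in DKO CXCR6+ cells, against 15 to 32 in WT CXCR6+ cells. It had 4 counts in DKO SLAMF6+ cells, against 23 to 53 in WT SLAMF6+ cells. Trdc passed the filter only through the WT libraries, so no test is given for it either.

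The T cell label was checked against Cd4 and the markers of other cells. Cd4, the co-receptor of helper T cells, was at 319 CPM in DKO CXCR6+ cells and 259 ± 52.9 CPM in WT CXCR6+ cells (SD, n = 5), and at 337 CPM in DKO SLAMF6+ cells and 298 ± 21.7 CPM in WT SLAMF6+ cells (SD, n = 5). It was not called in either comparison (edgeR adjusted p = 0.375 and 0.586). Summed over 6 B cell genes, levels were 130 CPM in DKO CXCR6+ cells, against 5.67 to 19.0 in WT CXCR6+ cells, and 162 CPM in DKO SLAMF6+ cells, against 14.6 to 220 in WT SLAMF6+ cells. Ms4a1, which encodes CD20, was at 0 in both DKO libraries. Summed over 4 myeloid genes, they were 17.8 CPM in DKO CXCR6+ cells, against 0.199 to 1.43 in WT CXCR6+ cells, and 21.3 CPM in DKO SLAMF6+ cells, against 0 to 0.389 in WT SLAMF6+ cells. The part of other cells in the DKO differences was not tested.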

How the data were processed

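The 12 libraries of 1000 sorted living cells each were made by a modified SMART-Seq2 protocol with Nextera XT and sequenced as paired 38-base reads on an Illumina NextSeq instrument, per the labels' protocols. Such libraries do not mark the strand. The deposited values are expected counts, whole numbers for each symbol and library. The submitters' processing notes name STAR 2.7.7a, RSEM 1.3.3 and mm10. In expected counts, reads that match several genes are divided among those genes. The RSEM settings, the annotation and any filters are not stated in the notes. All 12 columns were matched to samples by their labels.

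All genes and all 4 groups entered 1 fit in edgeR 4.0.16 (R 4.3.3) with TMM scaling, filterByExpr (21565 genes kept), its quasi-likelihood test and, over all genes, Benjamini-Hochberg adjustment at 0.05. The single DKO libraries were assumed to vary like the WT libraries. CPM uses TMM-adjusted totals. Ratios of the WT subsets were tested with exact two-sided permutation tests (scipy 1.17.1) that did not pair libraries by number. They were adjusted over 8 ratios, of which 6 were added after seeing the data. A floor of 3 counts stands in for a group at 0. Coordinates, lengths and sequences came from GENCODE M21 (GRCm38), which matched 87.5% of symbols. The fit was tested on simulated counts with less spread than these data, so that test cannot show its accuracy here. Named genes are all members, plus the genes of the lists given. Members and lists were chosen with earlier results of these data known. Alternatives were DESeq2 1.42.0 scaling and Wald test, limma-voom (limma 3.58.1), no filter, scaling without receptor, immunoglobulin, mitochondrial and haemoglobin genes, fits of 2 groups, replicate blocks, libraries left out and a term for mt-Ts1.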

Additional observations from a re-analysis of the deposited data

Results flagged for a closer look

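Each gene level or ratio was examined within each WT group of 5 libraries, which gave 23 sets of values. In 6 of these, 1 library stood apart from the others by Dixon's test at the 95% level. Chance flags about 1 in 20 independent sets, but these sets share counts, so the 6 cannot be compared with that rate. Where all other libraries are at 0, as for the Traj segments, the test always flags the library with counts. Trbc1 was at 850 CPM in WT SLAMF6+ library 3, against 759 to 779 CPM in the other 4. WT CXCR6+ library 4 held Traj3 at 118.5 CPM and Traj2 at 118.3 CPM, both at 0 in the other 4, and so 69.7 Traj counts per 1000 Trac counts. The same library had the lowest Trav counts per 1000 Trac counts, 812.3 against 950.2 to 991.9. Trbc1 per 1000 CD3 counts was 1523 in WT CXCR6+ library 5, against 1057 to 1097 in the others.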

How the results depend on the processing

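The calls of Trac, Trbc1 and Trbc2 between DKO and WT cells, in each direction and subset, held under all 13 alternatives run. Traj18 is left out here, since it passed the filter only through the DKO SLAMF6+ library and its call is not read as a change. Between the WT subsets, the number called among all tested genes of the part, Traj segments included, was 1 in edgeR. It was 2 with DESeq2's Wald test, 2 with limma-voom, 4 with the fixed replicate block and 2 with the random block. It was 0 with the mt-Ts1 term (chosen after seeing the data), and 1 to 2 with libraries of 1 number left out. Trac was at -0.52 (log2) with the mt-Ts1 term. Trbc2 passed at -0.33 in DESeq2's Wald test, -0.39 in limma-voom, -0.39 with the fixed block and -0.39 with the random block, and ran between -0.46 and -0.27 with libraries left out. Trbc1 ran between -0.0126 (without number 5) and 0.16 there. The interaction called 2 with DESeq2's Wald test, 1 with limma-voom, 1 with the random block and 0 to 1 with libraries left out, where Trbc1 was at -0.67 to -0.49 (-0.63 in DESeq2's Wald test). Traj per 1000 Trac counts differed by 0 to 17.4 with libraries left out. The cause of these changes was not tested. Fitting only the WT groups moved the median log2 fold change of all genes by 0.129. WT libraries of the same number were no more alike than others (correlation of same-numbered deviations -0.0117 to 0.0290, of other pairs -0.0392 to 0.0335). This cannot decide whether libraries of the same number share an animal. No DKO library shares a number with a WT library. With the pairing taken as a block, an exact sign-flip test gave an adjusted p of 0.1 for the Trbc1 share (0.921), Trac per Trbc (-20.0), Trbv per Trbc (-91.8), Trbc1 per CD3 (495.4) and Trbc2 per CD3 (7015), where 5 pairs cannot give a raw p below 0.0625. Without libraries of 1 number, the adjusted p of these 5 was 0.0457. The fixed block also called Traj3 and Traj2, each held by 1 library. Of 6 share comparisons planned, 4 gave no value, because no Trbj rows and too few Traj counts were present, nor did their alternatives by length and minimum count. Each constant gene had at least 4693 counts in every library, but with 1 DKO library per subset the spread within DKO cells is unknown.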

Other observations

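The co-receptor genes of cytotoxic T cells differed between DKO and WT libraries. Cd8a, the CD8 alpha chain, had 0 counts in DKO CXCR6+ cells, against 0 to 3 in WT CXCR6+ cells, and 108 counts in DKO SLAMF6+ cells, against 0 to 1 in WT SLAMF6+ cells. It passed the filter only through that DKO library, so no test is given. Cd8b1, the beta chain, fell in DKO CXCR6+ cells with 10 counts, against 37 to 177 in WT CXCR6+ cells (edgeR adjusted p = 0.00463). It also fell in DKO SLAMF6+ cells with 15 counts, against 139 to 250 in WT SLAMF6+ cells (edgeR adjusted p = 0.00503). Trgc1, a gamma chain constant gene, had 236 counts in DKO CXCR6+ cells, against 0 to 26 in WT CXCR6+ cells (edgeR adjusted p = 0.0565), and 75 counts in DKO SLAMF6+ cells, against 0 to 16 in WT SLAMF6+ cells (edgeR adjusted p = 0.0812).

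Igkc, the immunoglobulin kappa constant gene, had 0 counts in DKO CXCR6+ cells, against 0 to 96 in WT CXCR6+ cells (edgeR adjusted p = 0.519). It had 187 counts in DKO SLAMF6+ cells, against 0 to 16 in 4 of the WT SLAMF6+ libraries and 1174 in library 5, on which the overlap rests.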
